A study of Mus musculus with 21 samples.

Results

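The 7 genes described here are the FoxO transcription factors Foxo1 and Foxo3 and 5 genes tied to FoxO signalling or to muscle atrophy: Pik3ip1, Fbxo32, Trim63, Klhl38 and Gadd45a. They were picked by symbol from the 18762 genes of the deposited expression table, with earlier results of the same data known, in particular their levels under isoproterenol. Their levels are therefore given as a description, without a test, and tests are kept for other genes of the same pathways. The lists of those genes were also chosen with earlier results known, so their counts and p-values are not independent of that choice. All 21 libraries came from the heart apex of ICR mice whose ventricular apex had been resected at day 1, sampled at postnatal day 7. Drugs were given by subcutaneous injection, for which the labels state 7 consecutive days. The 7 groups of 3 libraries were isoproterenol, an agonist of β-adrenergic receptors; amiodarone, which blocks potassium and other channels; metoprolol and propranolol, 2 β-blockers; lidocaine, a sodium channel blocker; ivabradine, which blocks the pacemaker current; and the control, labelled with the resection alone. The labels give no dose, no hour of sampling and no injection for the control. Whether each library is an animal of its own is not stated either, and p-values measure only the spread between libraries.

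FoxO factors enter the nucleus and switch on their targets when signalling through phosphoinositide 3-kinase (PI3K) and the kinase AKT is low, and are phosphorylated by AKT and held in the cytoplasm when it is high. In striated muscle their targets include ubiquitin ligases that mark proteins for the proteasome and genes of autophagy, which together are known as the atrophy programme. FoxO activity is set largely by this phosphorylation, which an RNA measurement does not show.

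Expression was deposited as FPKM, fragments per length of transcript and per mapped total, so levels of different genes can be set side by side. Summed FPKM ran from 496304 to 552905 per library and 16348 to 16746 genes were above 0. No read counts were given, so the absolute depth is unknown. Relative depth, read from the steps of 64 low genes, ran from 0.974 to 1.02. Those genes were kept only where each non-zero value lay within 12% of a whole multiple of 1 common step. The range was thus bounded in advance and cannot show that depth was even. Cardiomyocyte markers were high in all groups, summing to 36927 FPKM or more over 11 genes. The highest level of a marker of another tissue marked 4 libraries: skeletal muscle Mylpf in control 3 (62.7 FPKM, next highest library 30.4), atrial Myl7 in isoproterenol 3 (176 FPKM, next 3.26), lung Sftpc in amiodarone 2 (222 FPKM, next 9.10) and liver Alb in propranolol 1 (10.8 FPKM, next 0.97). The 4 libraries were not the only ones with such markers: amiodarone 3 (Mylpf 30.4 FPKM) and lidocaine 1 (Sftpc 9.10 FPKM) stay in the values given without them. Y-linked transcripts, summed over 4 genes, stood at 0.86 to 0.98 FPKM in the isoproterenol libraries, 38.1 to 41.4 FPKM under amiodarone, 0.86 to 38.0 FPKM under metoprolol, 35.8 to 43.2 FPKM under propranolol, 0.96 to 42.5 FPKM under lidocaine, 0.76 to 49.0 FPKM under ivabradine and 0.98 to 46.7 FPKM in the controls. Macrophage markers summed to 92.5 to 199 FPKM under isoproterenol and 250 to 635 FPKM in the controls. Their sums were 198 to 284 FPKM under amiodarone, 155 to 435 FPKM under metoprolol and 177 to 239 FPKM under propranolol. Lidocaine libraries held 138 to 326 FPKM and ivabradine libraries 235 to 276 FPKM. Values without the 4 libraries are given beside the results they moved, and a fit with a Y-linked covariate called 1708 genes between isoproterenol and the anti-arrhythmic groups, 33 of them among the pathway genes below, where the fit without it called 2831 and 52. Y-linked transcripts were low in every isoproterenol library and high in every amiodarone and propranolol library. Drug and Y-linked level therefore cannot be told apart between those groups. Log2 differences of isoproterenol from the anti-arrhythmic groups fell with the covariate from 0.20 to 0.13 for Foxo3 and from 0.17 to 0.09 for Foxo1. For these genes it gave the lowest value of all alternatives, and for the other described genes another alternative did. Beyond these fits, the part of the marker differences in the results was not tested.

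All 7 genes had their highest group mean in the isoproterenol hearts. Against the control, 4 of them (Klhl38, Fbxo32, Foxo3 and Trim63) were higher in every isoproterenol library than in any control library and 0 were lower in every one. Of all 12433 genes tested, 12.0% stood above and 32.8% below in the same way. The median difference of the 7 genes was 0.38 on the log2(FPKM + 1) scale, beside -0.09 for all tested genes. Against the 15 libraries of the 5 anti-arrhythmic groups, 3 genes (Pik3ip1, Klhl38 and Gadd45a) were higher in all 3 isoproterenol libraries than in all 15, and 0 were lower than all 15. Of all tested genes 3.43% stood above and 5.34% below in that way. Both comparisons share the isoproterenol libraries, and the genes were chosen on such values, so nothing is read from these shares. In bulk tissue, fewer cells of a type and less RNA per cell cannot be told apart.

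**Figure D1:**
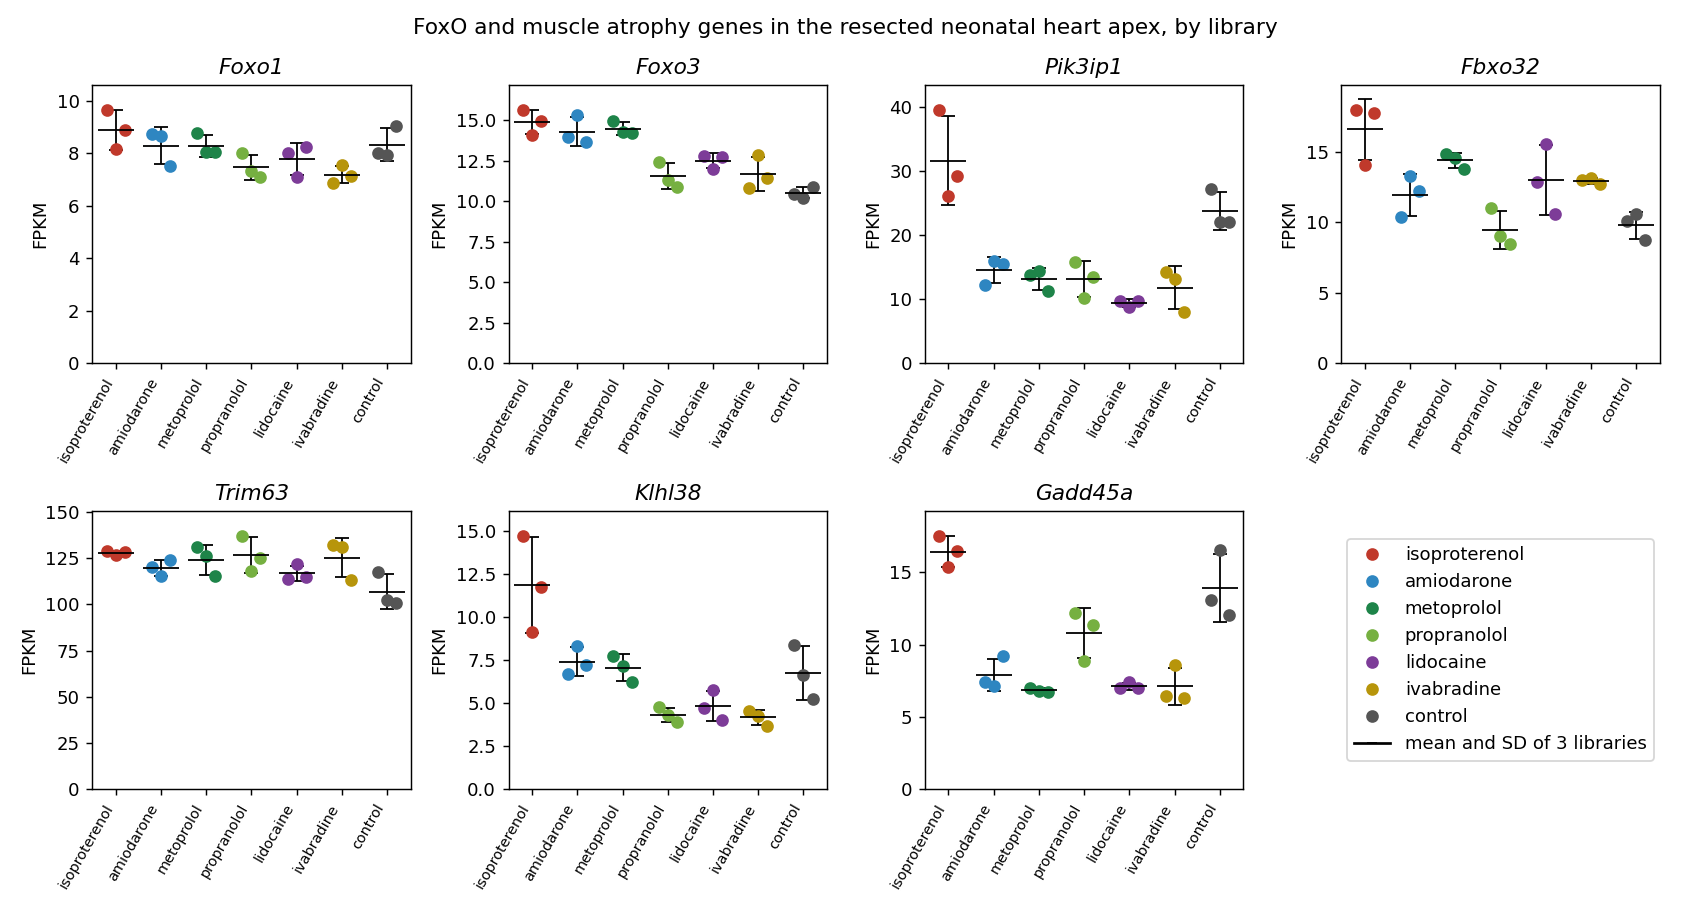
FPKM of each of the 7 genes (vertical axis, from 0) in each library, by group along the horizontal axis. Points are libraries, and bars are the mean and SD of 3 libraries; Pik3ip1 and Gadd45a stand high under isoproterenol and in the control and low in most anti-arrhythmic libraries, while Foxo3 is lowest in the control.

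Foxo3 (Entrez 56484), the factor best known for switching on atrophy ligases in muscle, stood at 15.6, 14.1 and 14.9 FPKM in the isoproterenol libraries, against 10.5, 10.2 and 10.9 FPKM in the control libraries. The ranges did not overlap, and the difference was 0.46 ± 0.06 (log2, SE). Amiodarone libraries held 13.96, 15.3 and 13.6 FPKM and metoprolol libraries 14.9, 14.3 and 14.2 FPKM, inside or next to the isoproterenol range. Propranolol libraries held 12.4, 11.3 and 10.9 FPKM, lidocaine libraries 12.8, 12.0 and 12.7 FPKM, and ivabradine libraries 10.8, 12.8 and 11.4 FPKM. Of the 15 anti-arrhythmic libraries, 13 stood above every control. The groups fell into a higher set of isoproterenol, metoprolol and amiodarone and a lower set of lidocaine, ivabradine, propranolol and control, and the step between amiodarone and lidocaine was the only neighbouring pair in the order of means whose libraries did not overlap.

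Foxo1 (Entrez 56458), the second FoxO factor of the group, varied least in proportion after Trim63. It stood at 9.63, 8.14 and 8.86 FPKM under isoproterenol and at 7.99, 7.94 and 9.03 FPKM in the control, ranges that overlapped. The difference was 0.08 ± 0.07 (log2, SE), and ran from 0.0021 with a Y-linked covariate to 0.18 after rescaling by medians of ratios, with 0.03 without isoproterenol 1. Anti-arrhythmic libraries ran from 6.86 FPKM to 8.77 FPKM with a median of 7.99 FPKM, and 7 of 15 stood below every control, ivabradine being lowest at 7.18 ± 0.34 FPKM (SD, n = 3). No neighbouring groups in the order of Foxo1 levels were apart, and the sign of its difference from control under amiodarone and metoprolol changed with the processing.

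Pik3ip1 (Entrez 216505) encodes a membrane protein that binds the catalytic subunit of PI3K and restrains it, upstream of FoxO. Its 3 isoproterenol libraries held 39.5, 26.2 and 29.2 FPKM and its 3 control libraries 27.2, 22.1 and 22.1 FPKM. These ranges overlapped, since isoproterenol 2 was below control 1, and the difference was 0.38 ± 0.18 (log2, SE), or 0.22 without isoproterenol 1. Amiodarone libraries held 12.2, 16.0 and 15.4 FPKM, metoprolol libraries 13.7, 14.5 and 11.2 FPKM and propranolol libraries 15.7, 10.3 and 13.4 FPKM. Lidocaine libraries held 9.68, 8.74 and 9.78 FPKM and ivabradine libraries 14.3, 13.1 and 8.04 FPKM. All 15 anti-arrhythmic libraries were below all 6 others. Group means were 61.1%, 55.2%, 55.2%, 39.5% and 49.7% of the control mean under amiodarone, metoprolol, propranolol, lidocaine and ivabradine. The isoproterenol mean of 31.7 FPKM was 2.55 times the mean of the 5 anti-arrhythmic groups, 12.4 FPKM, a difference of 1.29 ± 0.14 (log2, SE). Its range over the 21 libraries, 4.92-fold from lowest to highest, was the widest of the 7 genes.

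Gadd45a (Entrez 13197), a growth arrest and DNA damage gene induced in wasting skeletal muscle, showed a similar order of groups. Isoproterenol libraries held 17.5, 15.4 and 16.5 FPKM, and control libraries 13.1, 16.6 and 12.1 FPKM, with 1 control, control 2, inside the isoproterenol range. The difference was 0.24 ± 0.12 (log2, SE), or 0.36 without control 2 and 0.14 without the 4 libraries with markers of other tissues. Propranolol stood between, at 12.2, 8.86 and 11.4 FPKM. Amiodarone libraries held 7.38, 7.10 and 9.19 FPKM, metoprolol libraries 7.02, 6.76 and 6.70 FPKM, lidocaine libraries 7.00, 7.40 and 6.97 FPKM and ivabradine libraries 6.42, 8.59 and 6.30 FPKM. Of the 15 anti-arrhythmic libraries 14 were below every control, the exception being propranolol 1. The isoproterenol mean was 2.07 times the mean of the 5 anti-arrhythmic groups, a difference of 0.98 ± 0.10 (log2, SE).

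Fbxo32 (Entrez 67731) encodes atrogin-1, the F-box subunit of an SCF ubiquitin ligase and a classical FoxO target. It stood at 18.0, 14.1 and 17.8 FPKM in the isoproterenol libraries, against 10.1, 10.6 and 8.74 FPKM in the control libraries. Every isoproterenol library was above every control, and the difference was 0.70 ± 0.12 (log2, SE), 1.70-fold between means. Metoprolol libraries held 14.8, 14.6 and 13.8 FPKM, lidocaine libraries 12.9, 15.6 and 10.6 FPKM and ivabradine libraries 13.0, 13.2 and 12.7 FPKM, each above every control. Amiodarone libraries held 10.4, 13.3 and 12.2 FPKM. Propranolol libraries held 11.0, 9.0 and 8.44 FPKM and spanned the control range. The Fbxo32 difference of propranolol from control, -0.05 ± 0.12 (log2, SE), changed sign without propranolol 3 or control 2 and after rescaling.

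Trim63 (Entrez 433766) encodes MuRF1, a RING-finger ubiquitin ligase of the sarcomere, and was by far the most abundant of the 7 genes, averaging 121 FPKM over the 21 libraries, the 95.0th percentile of tested genes. Its 3 isoproterenol libraries held 129, 127 and 129 FPKM and its controls 118, 103 and 101 FPKM, which did not overlap. The difference was 0.26 ± 0.07 (log2, SE). Anti-arrhythmic libraries ran from 113 FPKM to 137 FPKM, with 10 of 15 above every control, and from those groups the isoproterenol libraries differed by 0.07 ± 0.06 (log2, SE). In proportion its range over the 21 libraries, 1.36-fold, was the narrowest of the 7 genes.

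Klhl38 (Entrez 268807), a kelch-like protein of a family that includes substrate adaptors of cullin 3 ligases, stood at 14.7, 9.16 and 11.7 FPKM under isoproterenol. The controls held 8.38, 6.61 and 5.24 FPKM, all below the isoproterenol libraries, and the difference was 0.73 ± 0.15 (log2, SE), 1.76-fold between means. Amiodarone libraries held 6.72, 8.33 and 7.20 FPKM and metoprolol libraries 7.76, 7.18 and 6.21 FPKM, within the control range. Propranolol libraries held 4.75, 4.28 and 3.90 FPKM, lidocaine libraries 4.70, 5.78 and 4.01 FPKM and ivabradine libraries 4.55, 4.25 and 3.69 FPKM. All propranolol and ivabradine libraries were below every control. The isoproterenol mean was 2.14 times that of the 5 anti-arrhythmic groups, a difference of 0.99 ± 0.12 (log2, SE), and isoproterenol and amiodarone, first and second in the order, did not overlap. Control 3, whose summed fast skeletal muscle markers were highest at 183 FPKM, had the lowest Klhl38, Fbxo32, Trim63 and Gadd45a of the 3 controls. It had the highest Foxo1 (9.03 FPKM) and Foxo3 (10.9 FPKM) of them, and its Pik3ip1 was level with control 2 (22.1 FPKM in both). Those markers summed to 10.4 to 15.0 FPKM in the isoproterenol libraries and 30.8 to 183 FPKM in the controls. They were also low under lidocaine (12.3 to 17.8 FPKM), ivabradine (13.2 to 18.4 FPKM) and metoprolol (17.0 to 29.0 FPKM). Propranolol libraries held 14.7 to 39.0 FPKM and amiodarone libraries 16.6 to 97.4 FPKM. Without the 4 libraries with markers of other tissues the isoproterenol difference from control was 0.58 for Klhl38, 0.58 for Fbxo32 and 0.22 for Trim63, and the part of skeletal muscle RNA in these levels was otherwise not tested.

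**Figure D2:**
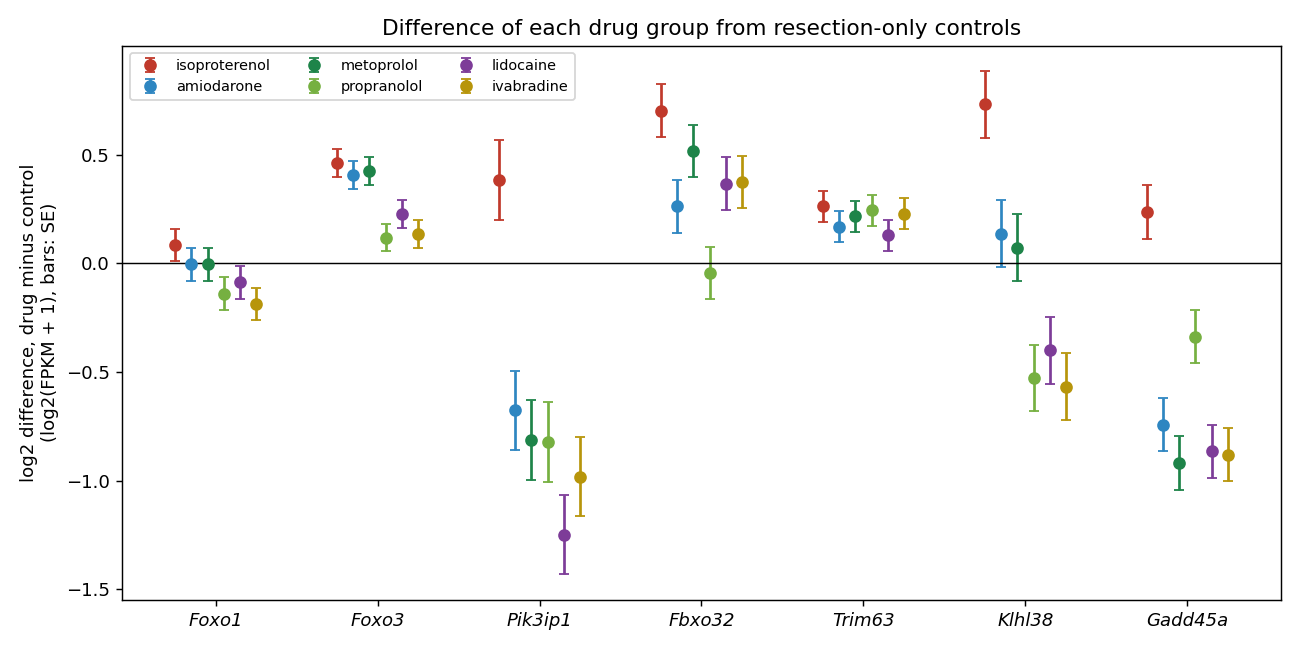
Difference of each drug group from the control for the 7 genes, on the log2(FPKM + 1) scale (vertical axis), with bars for the SE and colours for the drugs. The 7 isoproterenol points lie above 0, from 0.08 for Foxo1 to 0.73 for Klhl38; the 5 anti-arrhythmic points of Pik3ip1 and Gadd45a lie below 0 and those of Foxo3 and Trim63 above it.

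The anti-arrhythmic groups split the 7 genes against the control. Pik3ip1 and Gadd45a stood lower than the control on average under all 5 drugs, by 0.68 to 1.25 and by 0.34 to 0.92 on the log2 scale, while Foxo3 and Trim63 stood higher under all 5, by 0.12 to 0.42 and by 0.13 to 0.24. Genes higher and lower in all 3 libraries of the drug than in all 3 controls numbered 1 and 2 under amiodarone, 2 and 2 under metoprolol, 1 and 2 under propranolol, 2 and 2 under lidocaine and 1 and 4 under ivabradine. Among all tested genes the shares above and below were 13.0% and 30.6% under amiodarone, 14.7% and 31.8% under metoprolol, 11.4% and 31.2% under propranolol, 15.2% and 33.3% under lidocaine, and 10.1% and 25.8% under ivabradine. All 6 drug comparisons share the 3 control libraries.

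Both β-blockers, metoprolol, which favours the β1-adrenergic receptor, and propranolol, which does not discriminate between β1 and β2, were given at doses absent from the labels, so their values are set side by side with no comparison. Fbxo32 averaged 14.4 ± 0.53 FPKM under metoprolol and 9.48 ± 1.35 FPKM under propranolol (SD, n = 3 each). Klhl38 averaged 7.05 ± 0.78 FPKM under metoprolol and 4.31 ± 0.43 FPKM under propranolol, and Foxo3 14.5 ± 0.40 FPKM under metoprolol and 11.5 ± 0.80 FPKM under propranolol. Gadd45a averaged 6.83 ± 0.17 FPKM under metoprolol and 10.8 ± 1.73 FPKM under propranolol, while Pik3ip1 averaged 13.1 FPKM under both.

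Across the 21 libraries the genes did not follow a single pattern. Correlations of log2(FPKM + 1) ran from -0.10 between Trim63 and Foxo1 to 0.85 between Pik3ip1 and Gadd45a. Pik3ip1 and Klhl38 correlated at 0.78 and Fbxo32 and Foxo3 at 0.70, whereas Gadd45a and Fbxo32 stood at 0.01. After group means were taken out, so that only the spread between libraries of a group was left, the highest values were 0.81 for Foxo1 with Foxo3 and 0.80 for Klhl38 with Fbxo32. These are descriptions over 21 libraries that share groups and sample preparation and whose depth is unknown.

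**Figure D3:**
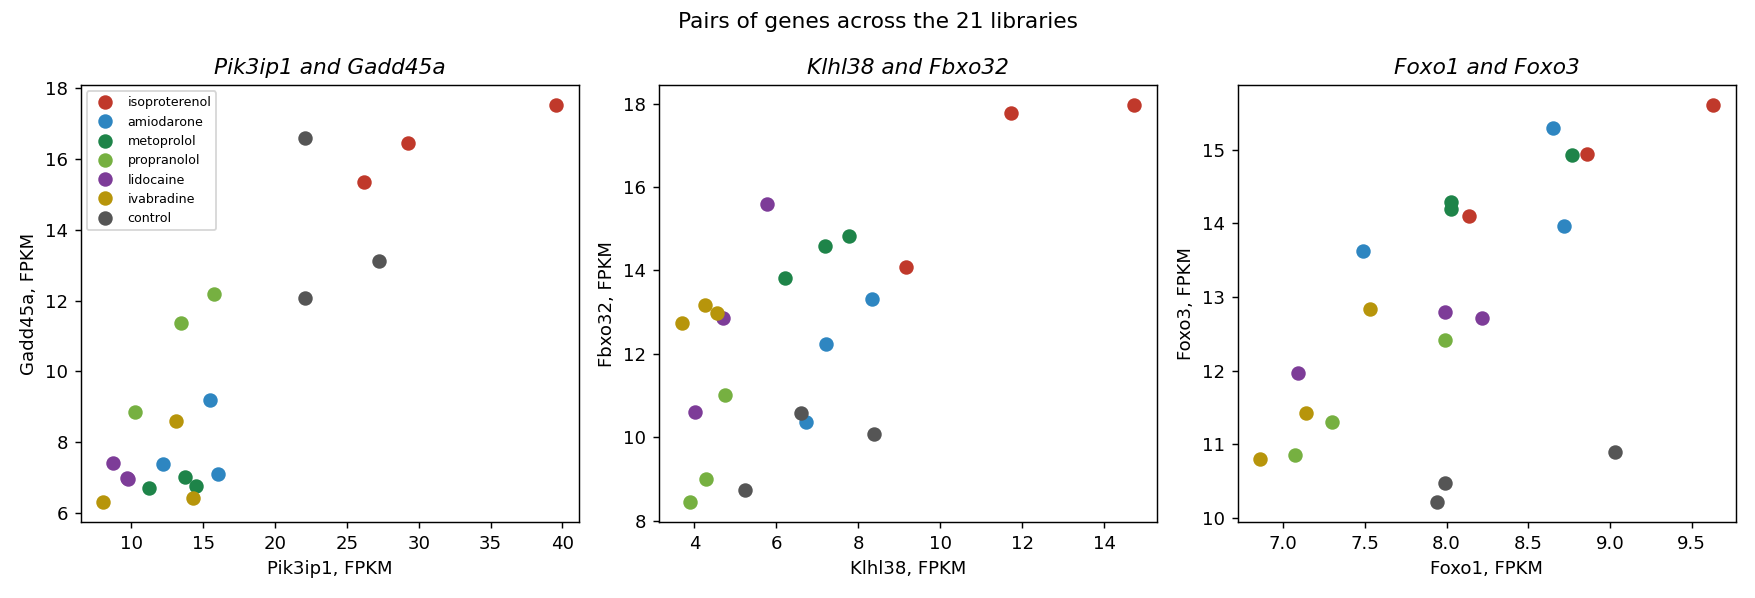
FPKM of 3 pairs of genes in the 21 libraries, 1 point per library, coloured by group. Pik3ip1 and Gadd45a are low together in most anti-arrhythmic libraries (r = 0.85 over 21 libraries), Klhl38 is highest in the 3 isoproterenol libraries and Fbxo32 in 2 of them, and the 3 controls lie low in Foxo3 for their Foxo1.

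The genes whose levels followed each of the 7 most closely over the 21 libraries differed between them. For Pik3ip1 they were Brat1 (r = 0.94), Atg12, an autophagy conjugation protein (0.93), and Carns1, carnosine synthase (0.92). Carns1 also led for Gadd45a (0.88), before Rpusd4 (0.87) and Lrrc14b (0.86). Klhl38 was followed by Il10rb (0.89), Mllt6 (0.88) and Slc25a42 (0.86), Fbxo32 by Fam214a (0.86), Asb15 (0.83) and Grb14 (0.83), and Trim63 by Asb10 (0.83), Ldoc1l (0.83) and Sf3b2 (0.82). Foxo1 was followed by Dact1 (0.91), Slc36a1 (0.89) and Ctdsp2 (0.89), and Foxo3 by Cds2, Tmem245 and Osbp (0.91 each). Within groups the closest were Lipe, hormone-sensitive lipase, for Pik3ip1 (0.90), Kcnj11, a subunit of the ATP-sensitive potassium channel, for Trim63 (0.90) and Rbl2, the pocket protein p130, for Foxo3 (0.92). Ldoc1l led for Klhl38 (0.79), Stau2 for Fbxo32 (0.78), Jkamp for Gadd45a (0.77) and Dact1 again for Foxo1 (0.87).

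Promoter sequence was at hand for 5 of the 7 genes, as windows of 250 bases before to 50 bases after the RefSeq start in the mouse build GRCm38.p6; Klhl38 and Fbxo32 are named only. Trim63 is shown because its window held matches to motifs of a FoxO factor and of the glucocorticoid receptor, and Pik3ip1 and Gadd45a because their levels moved together over the libraries. The motifs searched, on both strands, were the FoxO core GTAAACA, the glucocorticoid receptor palindrome, the cAMP response element TGACGTCA, the D-box TTATGTAA, the E-box CACGTG and the ATF4 composite TGATGNAA. In the Trim63 window, chr4:134314870-134315169 on the plus strand, both matches are in capitals: the palindrome, reading GAACAGTCTGTTC, at bases -208 to -196 from the start and, 1 base on, the FoxO core on the other strand at -194 to -188. Pik3ip1 lies at chr11:3330481-3330780 on the plus strand and Gadd45a at chr6:67037358-67037657 on the minus strand.
Trim63: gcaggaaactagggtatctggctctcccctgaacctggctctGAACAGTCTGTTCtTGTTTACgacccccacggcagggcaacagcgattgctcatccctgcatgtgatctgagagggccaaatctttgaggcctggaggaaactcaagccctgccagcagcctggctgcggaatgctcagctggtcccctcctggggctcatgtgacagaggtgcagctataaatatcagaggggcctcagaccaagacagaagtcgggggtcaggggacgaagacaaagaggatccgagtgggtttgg
Pik3ip1: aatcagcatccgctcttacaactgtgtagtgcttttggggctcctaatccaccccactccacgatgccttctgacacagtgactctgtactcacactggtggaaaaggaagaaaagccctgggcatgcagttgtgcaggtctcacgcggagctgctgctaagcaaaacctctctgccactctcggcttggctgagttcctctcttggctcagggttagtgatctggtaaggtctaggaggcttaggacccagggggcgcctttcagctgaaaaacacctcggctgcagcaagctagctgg
Gadd45a: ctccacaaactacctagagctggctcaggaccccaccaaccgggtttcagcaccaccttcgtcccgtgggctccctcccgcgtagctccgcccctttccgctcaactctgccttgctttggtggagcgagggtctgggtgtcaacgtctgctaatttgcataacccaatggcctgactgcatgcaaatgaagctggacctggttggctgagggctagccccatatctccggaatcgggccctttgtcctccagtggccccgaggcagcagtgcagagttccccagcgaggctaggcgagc
The FoxO core was in 3.65% of all 32851 promoter windows and in 1 of the 5 windows here, and the palindrome in 0.0578% of all windows and in 1 of 5. The other motifs were in 1.79% (cAMP response element), 0.938% (D-box), 7.15% (E-box) and 3.97% (ATF4 composite) of all windows, and in 0 of 5 here. Such a match is a description of letters, and no binding was measured.

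Other genes of these pathways, 177 tested of 180 listed with the 7 left out, were tested with limma against all 12433 genes with Benjamini-Hochberg adjustment and a threshold of 0.05. Against the control, 30 of them rose and 34 fell under isoproterenol, where 8.38% of all tested genes rose and 25.8% fell. Values rescaled by medians of ratios gave 54 that rose and 12 that fell, and moved the share of higher calls among all genes from 24.5% to 56.0%. Before rescaling the median of all tested genes lay at -0.09 (log2). Against the mean of the 5 anti-arrhythmic groups 27 rose and 25 fell (30 and 21 after rescaling), where 9.51% of all tested genes rose and 13.3% fell. These shares of all tested genes stand beside the isoproterenol counts of each list below that come from the main fit. List counts after rescaling stand beside 2027 genes that rose and 1594 that fell against the control. For the anti-arrhythmic groups these were 1444 and 1459. List counts without the 4 libraries stand beside 544 and 1396 against the control and 669 and 715 against the anti-arrhythmic groups.

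The third FoxO factor, Foxo4, rose under isoproterenol, to 24.0 ± 2.34 FPKM, against 17.7 ± 1.73 FPKM in the control (SD, n = 3 each), by 0.42 ± 0.09 (log2, SE, adjusted p = 0.0014). Against the 15 anti-arrhythmic libraries, at 17.8 ± 1.54 FPKM, it rose by 0.41 ± 0.07 (adjusted p = 0.00035), and both calls held in every alternative run. Under each anti-arrhythmic drug Foxo4 did not pass against control (differences of -0.12 to 0.12). Foxo6, at 2.38 ± 0.81 FPKM under isoproterenol and 2.96 ± 0.50 FPKM in the control, did not pass (adjusted p = 0.27).

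The list of 32 FoxO target genes was written from general knowledge, with earlier results of these data known. Of them 10 rose and 3 fell under isoproterenol against the control. After rescaling 16 rose and 1 fell, and without the 4 libraries with markers of other tissues 7 rose and 0 fell. Pdk2, a kinase that restrains pyruvate dehydrogenase, rose to 220 ± 13.2 FPKM, against 160 ± 12.8 FPKM in the control (0.46 ± 0.07, adjusted p = 0.00012). Pink1, a kinase of mitophagy, rose to 199 ± 5.56 FPKM, against 145 ± 11.3 FPKM (0.46 ± 0.07, adjusted p = 0.00025), and Sesn1, a stress sensor that restrains mTORC1, to 31.3 ± 4.43 FPKM, against 23.4 ± 1.44 FPKM (0.40 ± 0.08, adjusted p = 0.00089). Klf15, a factor that FoxO and glucocorticoids both induce, rose by 0.57 ± 0.12 (adjusted p = 0.0022). Ccnd1, cyclin D1, which FoxO factors repress, fell by 0.24 (adjusted p = 0.0051), a call lost after rescaling (adjusted p = 0.12) and without the 4 libraries (adjusted p = 0.069). Of the 13 calls, 7 held in every alternative.

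Against the 5 anti-arrhythmic groups 14 of the 32 FoxO targets rose and 4 fell (15 and 4 after rescaling; 9 and 3 without the 4 libraries). Median differences were 0.14 for the list and -0.01 for all tested genes. Sesn1 rose by 0.45 ± 0.06 (adjusted p = 5.8e-05), Cited2, a transcriptional coregulator, by 0.55 ± 0.07 (adjusted p = 5.8e-05) and Pdk2 by 0.36 ± 0.05 (adjusted p = 0.00013). Cited2 stood at 23.3 ± 2.88 FPKM under isoproterenol and 15.6 ± 1.75 FPKM in the 15 anti-arrhythmic libraries, while against the control it did not pass (0.14 ± 0.09, adjusted p = 0.26). Irs2, the insulin receptor substrate that carries the signal to PI3K, fell by 1.49 on the log2 scale (adjusted p = 0.00092) and Ccnd1 by 0.25 (adjusted p = 0.00089). The calls of these 5 genes against the anti-arrhythmic groups held in every alternative run, as did 11 of the 18 on the list.

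Irs2 differed from the control by more, on the log2 scale, than any of the 7 genes under each anti-arrhythmic drug. It rose under each of the 5 drugs, by 1.61 (propranolol) to 3.25 (lidocaine) on the log2 scale, with adjusted p of 0.004 for propranolol, 0.0013 for ivabradine, 0.00011 for amiodarone and less for the other 2. Libraries held 19.8 to 32.8 FPKM under lidocaine, 12.7 to 24.3 FPKM under amiodarone, 13.7 to 26.1 FPKM under metoprolol, 5.26 to 22.0 FPKM under ivabradine and 6.36 to 10.5 FPKM under propranolol, against 1.62 to 2.23 FPKM in the control. Under isoproterenol, at 4.2 to 5.94 FPKM, its rise against the control (0.97 ± 0.36, adjusted p = 0.043) held in 7 of 15 alternatives.

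Under the anti-arrhythmic drugs the FoxO targets were called in both directions against the control: 4 rose and 7 fell under amiodarone, 11 and 5 under metoprolol, 3 and 8 under propranolol, 8 and 8 under lidocaine, and 5 and 7 under ivabradine. After rescaling, 10 rose and 3 fell under amiodarone, 13 and 2 under metoprolol, 9 and 4 under propranolol, 12 and 6 under lidocaine, and 8 and 5 under ivabradine, so that the balance under amiodarone, propranolol and ivabradine turned. Before rescaling, 8.47% of all tested genes rose and 20.6% fell under amiodarone, 9.48% and 22.0% under metoprolol, and 6.98% and 19.8% under propranolol. The shares were 10.6% and 26.6% under lidocaine, and 7.91% and 19.1% under ivabradine. Rescaling turned the balance of all genes under each of these drugs. After it 1785 genes rose and 1118 fell under amiodarone, 1911 and 1288 under metoprolol, and 1673 and 1192 under propranolol. Numbers were 2235 and 1724 under lidocaine and 1743 and 1288 under ivabradine. The turn was thus not particular to the FoxO targets. Tnfsf10, the death ligand TRAIL, fell under all 5, by 0.46 (amiodarone) to 0.86 (ivabradine) on the log2 scale. The amiodarone call was lost without the 4 libraries (adjusted p = 0.055). Cited2 fell by 0.26 (amiodarone, adjusted p = 0.042) to 0.57 (ivabradine, adjusted p = 0.00042), and Atg12 by 0.24 (propranolol, adjusted p = 0.018) to 0.41 (lidocaine, adjusted p = 0.0004). The amiodarone call of Cited2 held in 6 of 15 alternatives and the propranolol call of Atg12 in 12 of 15.

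**Figure D4:**
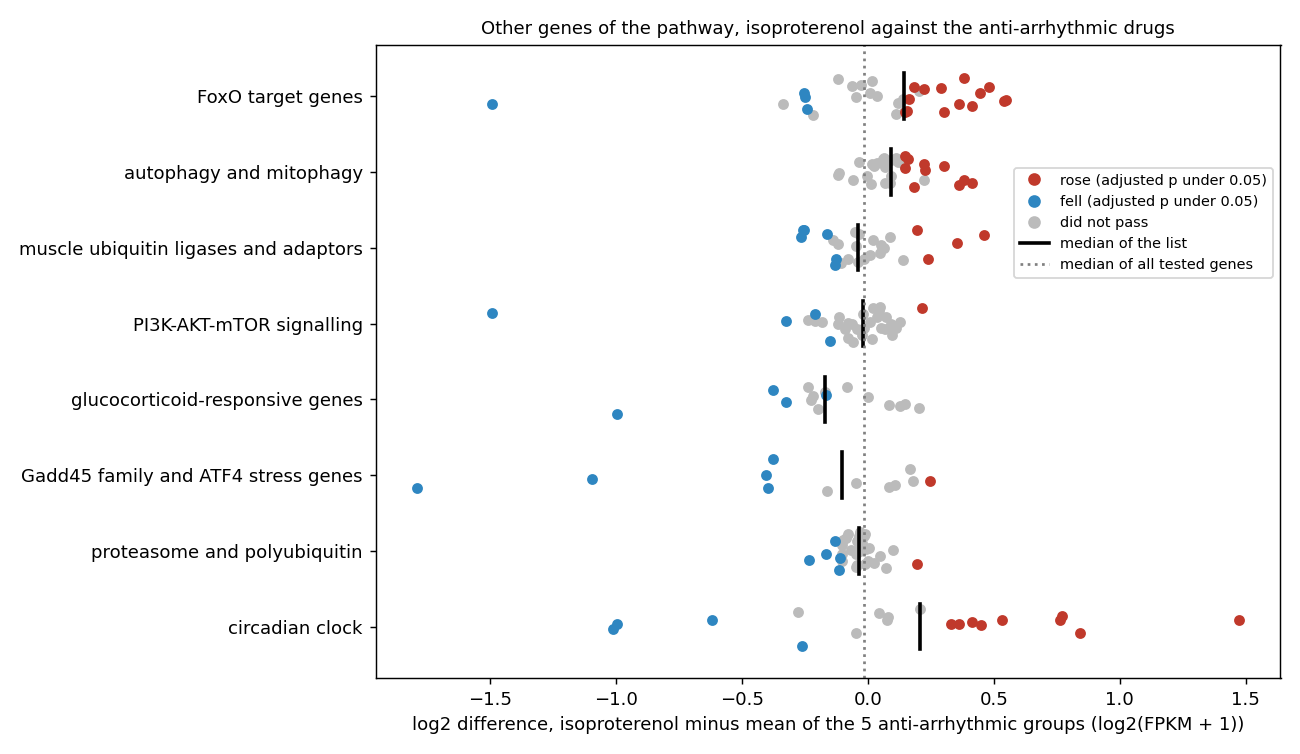
Difference between isoproterenol and the mean of the 5 anti-arrhythmic groups (horizontal axis, log2(FPKM + 1)) for each tested gene of 8 pathway lists, with genes that rose in red, genes that fell in blue and others in grey; points are spread vertically for legibility only. Black bars mark list medians, 0.14 for FoxO targets and 0.09 for autophagy, beside -0.01 for all tested genes (dotted line).

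Among 31 genes of autophagy and mitophagy, 7 of which are also on the FoxO target list, 8 rose and 0 fell under isoproterenol against the control (14 and 0 after rescaling; 5 and 0 without the 4 libraries), and 10 rose and 0 fell against the anti-arrhythmic groups (10 and 0 after rescaling; 7 and 0 without the 4 libraries). At an unadjusted p under 0.05 in limma, 2 were lower against the control and 0 against the anti-arrhythmic groups. Atg9a, a membrane protein of the forming autophagosome, rose to 32.5 ± 1.21 FPKM, against 26.0 ± 0.94 FPKM in the control (0.31 ± 0.04, adjusted p = 7.7e-05). Wipi1, a phosphoinositide-binding autophagy protein, rose by 0.27 ± 0.05 against the control (adjusted p = 0.00098). Both also rose under lidocaine, Wipi1 by 0.28 ± 0.05 (adjusted p = 0.00081) and Atg9a by 0.19 ± 0.04 (adjusted p = 0.0036). Against the control 1 gene of the list rose and 3 fell under amiodarone, 4 and 2 under metoprolol, and 1 and 4 under propranolol. Lidocaine gave 4 and 4 and ivabradine 1 and 3. Atg14, a subunit of the autophagy PI3K complex, rose against the anti-arrhythmic groups by 0.41 ± 0.07 (adjusted p = 0.00049) and Atg12 by 0.30 ± 0.05 (adjusted p = 0.00079). Atg12 stood at 11.7 ± 1.07 FPKM under isoproterenol and 11.8 ± 0.73 FPKM in the control, a difference that did not pass (adjusted p = 0.94). Of the calls on this list, 4 of 8 against the control and 6 of 10 against the anti-arrhythmic groups held in every alternative.

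Of 26 other muscle ubiquitin ligases and their adaptors, 6 rose and 2 fell under isoproterenol against the control (10 and 0 after rescaling; 4 and 1 without the 4 libraries), and 4 rose and 6 fell against the anti-arrhythmic groups. In every alternative, 4 of the 8 calls against the control held and 1 of the 10 against the anti-arrhythmic groups. Fbxo31, an F-box protein that targets cyclin D1, rose to 14.4 ± 1.48 FPKM, against 10.3 ± 0.73 FPKM in the control (0.45 ± 0.07, adjusted p = 0.00028), and by 0.36 ± 0.06 against the anti-arrhythmic groups (adjusted p = 0.00033). Fbxo21 rose by 0.33 ± 0.07 against the control (adjusted p = 0.0014). Fbxo40, a muscle F-box protein known to target IRS1, rose under all 6 drugs against the control, by 0.34 (isoproterenol, adjusted p = 0.0019) to 0.53 (metoprolol, adjusted p = 0.00014), and the isoproterenol call was lost without the 4 libraries (adjusted p = 0.071). Against the control 3 genes of the list rose and 2 fell under amiodarone, 6 and 3 under metoprolol, 5 and 1 under propranolol, 7 and 3 under lidocaine, and 6 and 0 under ivabradine, where 1 was lower at an unadjusted p under 0.05 in limma.

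The proteasome and polyubiquitin list, the machinery that acts after the ligases, gave 1 gene that rose and 14 that fell of 33 under isoproterenol against the control, a direction that turned after rescaling, to 4 that rose and 1 that fell. Psmd14, a deubiquitinase of the proteasome lid, fell to 25.3 ± 2.47 FPKM, against 31.3 ± 1.12 FPKM in the control (-0.30 ± 0.06, adjusted p = 0.00088), and held in every alternative. The falls of Psmc4 (adjusted p = 0.0027) and Psmc5 (adjusted p = 0.0043) were lost after rescaling (adjusted p = 0.15 for Psmc4 and 0.2 for Psmc5). Against the anti-arrhythmic groups 1 rose and 5 fell (1 and 1 after rescaling). In all, 1 of the 15 calls against the control and 2 of these 6 held in every alternative. Falls before rescaling were not particular to isoproterenol. On this list 2 rose and 9 fell against the control under amiodarone, 1 and 9 under metoprolol, and 2 and 8 under lidocaine. Propranolol gave 2 and 3 and ivabradine 3 and 1.

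Of 33 tested genes of PI3K-AKT-mTOR signalling, 5 rose and 7 fell under isoproterenol against the control, and 1 rose and 4 fell against the anti-arrhythmic groups; 3 of these 12 calls and 1 of these 5 held in every alternative. Mtor, the growth kinase, rose to 12.5 ± 0.97 FPKM, against 9.06 ± 0.81 FPKM in the control (0.43 ± 0.09, adjusted p = 0.0013), and its partner Rptor rose by 0.22 ± 0.06 (adjusted p = 0.0057). Ddit4, an inhibitor of mTORC1, fell by 0.65 on the log2 scale (adjusted p = 0.0064). Igf1, the growth factor, fell to 4.33 ± 0.24 FPKM, against 7.06 ± 1.60 FPKM in the control (adjusted p = 0.0033), and Inpp5d, a lipid phosphatase of blood cells, by 0.54 (adjusted p = 0.0015). Both falls were lost without the 4 libraries (adjusted p = 0.068 for Igf1 and 0.059 for Inpp5d). Macrophage markers, as given above, summed lower in the isoproterenol libraries than in the controls, and their part in these falls was not tested. Under the anti-arrhythmic drugs 9 rose and 4 fell with amiodarone, 9 and 3 with metoprolol, 6 and 7 with propranolol, 9 and 6 with lidocaine and 5 and 4 with ivabradine. Mtor was also higher than the control under lidocaine, by 0.37 ± 0.09 (log2, SE).

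Both measured relatives of Gadd45a fell under isoproterenol against the control. Gadd45b stood at 4.70 ± 1.08 FPKM under isoproterenol, against 10.7 ± 1.12 FPKM in the control, and fell by 1.05 on the log2 scale (adjusted p = 0.0001). It fell under all 6 drugs, by 0.90 (ivabradine) to 1.33 (metoprolol). Gadd45g fell under isoproterenol to 16.0 ± 2.19 FPKM, against 27.5 ± 1.18 FPKM in the control (-0.75 ± 0.15, adjusted p = 0.0014). The stress factor Atf4, which induces Gadd45a in skeletal muscle, fell to 60.1 ± 5.44 FPKM, against 78.6 ± 1.59 FPKM in the control (-0.38 ± 0.07, adjusted p = 0.00036). Cdkn1a, the cell cycle inhibitor p21, fell to 18.2 ± 2.60 FPKM, against 47.5 ± 3.45 FPKM (-1.34 ± 0.10, adjusted p = 8.7e-07). Of the 12 genes on this list 1 rose and 7 fell against the control, where 8.38% of all tested genes rose and 25.8% fell. Against the anti-arrhythmic groups 1 rose and 5 fell, beside 9.51% and 13.3% of all tested genes. In every alternative 5 of these 8 calls and 3 of these 6 held. Against the anti-arrhythmic groups Cdkn1a fell by 1.09 (adjusted p = 3.6e-07), Atf4 by 0.40 (adjusted p = 3.8e-05) and Atf3 by 1.79 (adjusted p = 6.5e-05). The anti-arrhythmic drugs against the control gave 2 that rose and 4 that fell under amiodarone, 2 and 5 under metoprolol, and 2 and 3 under propranolol. Lidocaine gave 3 and 4 and ivabradine 3 and 7.

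Genes listed as responsive to glucocorticoids, 15 in all with the receptor gene Nr3c1 among them, gave 3 that rose and 3 that fell under isoproterenol against the control. Against the anti-arrhythmic groups 0 rose and 4 fell (1 higher and 6 lower at an unadjusted p under 0.05 in limma). In every alternative, 3 of the 6 calls against the control held and 1 of the 4 against the anti-arrhythmic groups. Dusp1, a phosphatase of MAP kinases, rose to 65.5 ± 3.11 FPKM, against 42.7 ± 4.15 FPKM in the control (0.61 ± 0.09, adjusted p = 0.00017). Under lidocaine it rose by more, to 89.4 ± 6.85 FPKM (1.05 ± 0.09, adjusted p = 1.2e-06). Against the control 3 genes of the list rose and 3 fell under amiodarone, 5 and 1 under metoprolol, and 3 and 2 under propranolol. Lidocaine and ivabradine each gave 6 and 0, with 0 lower at an unadjusted p under 0.05 in limma. Per1, also a clock gene, stood at 15.6 ± 2.45 FPKM under isoproterenol and 33.4 ± 11.4 FPKM in the 15 anti-arrhythmic libraries and fell by 1.00 in that comparison (adjusted p = 0.00017), while it rose against the control by 1.18 (amiodarone) to 2.22 (lidocaine) under the anti-arrhythmic drugs. Of 11 tested genes of myostatin and activin signalling, 0 rose and 0 fell under isoproterenol against the control in limma, with 1 higher and 1 lower at an unadjusted p under 0.05. On that list 1 rose and 0 fell for isoproterenol against the anti-arrhythmic groups. Counts against the control were 1 and 1 under lidocaine, and 0 and 2 under both propranolol and ivabradine. Amiodarone and metoprolol gave 0 and 0, each with 1 higher and 0 lower at an unadjusted p under 0.05 in limma. In every alternative, 0 of the calls on this list held.

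The circadian clock list, added because tissues were taken at an hour that the labels do not give, had 10 of 19 genes that rose and 2 that fell under isoproterenol against the control, and 9 that rose and 4 that fell against the anti-arrhythmic groups. Dbp, an output factor of the clock, stood at 80.6 ± 7.00 FPKM under isoproterenol and 33.0 ± 2.55 FPKM in the control, a rise of 1.26 ± 0.15 (adjusted p = 2.9e-05), and rose by 1.47 ± 0.12 against the anti-arrhythmic groups (adjusted p = 6.9e-07). Tef rose by 0.74 ± 0.09 against the control (adjusted p = 3.7e-05) and Per3 by 0.87 ± 0.11 (adjusted p = 4.8e-05), while Arntl, the clock activator BMAL1, fell to 1.28 ± 0.80 FPKM, against 3.87 ± 0.22 FPKM (adjusted p = 0.00072). Of the calls on this list, 11 of 12 against the control and 10 of 13 against the anti-arrhythmic groups held in every alternative. Clock genes were called in the group in which the 7 genes had their highest means, and their part in those levels was not tested.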

How the data were processed

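RNA of 21 heart apex libraries was sequenced on a BGISEQ-500 after oligo dT selection or rRNA depletion, per the labels' protocols. The authors deposited FPKM values for 18762 genes. HISAT, Bowtie2 2.2.5 and the build mm9 appear in the submitters' processing notes; the counter, annotation and filters are not given in the sources used here. Value columns mapped to no library numbered 0.

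On the log2(FPKM + 1) scale, limma 3.58.1 (R 4.3.3) estimated 1 mean for each group from the 21 libraries together, with 14 residual degrees of freedom and moderation along a mean-variance trend. Testing covered the 12433 genes that reached 1 FPKM in 3 or more libraries, the 7 described genes among them. Adjustment was Benjamini-Hochberg over all of these in each comparison, with a threshold of 0.05. Comparisons were each of 6 drugs against the control, and isoproterenol against the mean of the 5 anti-arrhythmic groups. The fit was tested on simulated data. An SE is that of the fit and an SD that of libraries.

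The 7 genes and the pathway and marker lists were chosen with earlier results of these data known, so the 7 have no p-value. Named list genes come from the 3 of smallest p called each way per list and comparison, and genes of like pattern from the 3 highest Pearson correlations, leaving out bare locus names; a part is given. Some genes are not reported here. Foxo6, and Gadd45g under isoproterenol, were named as relatives after their values were seen. Promoter windows are from RefSeq (GRCm38.p6), a later build than that of the values. Alternatives varied the pseudocount, the filter, the scaling (medians of ratios), the trend, the groups fitted, a replicate block, a Y-linked covariate and the libraries left out.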

Additional observations from a re-analysis of the deposited data

How the results depend on the processing

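Of 819 recomputed differences of the 7 genes, 810 moved by less than the spread between libraries and 9 by more. For isoproterenol against the anti-arrhythmic groups that spread pooled the 15 anti-arrhythmic libraries. It therefore also held differences between the 5 drugs and was a looser measure. The sign changed in 17, all of them values near 0. They were Foxo1 under amiodarone and metoprolol, Fbxo32 under propranolol, and Klhl38. Klhl38 changed sign under amiodarone and metoprolol without control 3 or the 4 libraries with markers of other tissues. Median-of-ratios rescaling raised differences from control by 0.07 to 0.09 (log2) at the median gene. Without the 4 libraries, genes called against control were 1940 (isoproterenol, 4254 in all), 1117 (amiodarone, 3608), 1355 (propranolol, 3332) and 2229 (ivabradine, 3358), and 1384 of 2831 for isoproterenol against the anti-arrhythmic groups; pathway genes called were 30, 20, 21, 28 and 30 in the same comparisons, against 64, 49, 46, 46 and 52. Fitting only the groups compared gave 1616 genes and 25 pathway genes for ivabradine. A Y-linked covariate gave 1708 genes and 33 pathway genes for isoproterenol against the anti-arrhythmic groups.

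With each library left out in turn, genes called ranged from 2778 to 4173 for isoproterenol against control, from 2038 to 3422 for amiodarone, from 2388 to 3674 for metoprolol, from 2000 to 3226 for propranolol, from 2217 to 3827 for ivabradine, and from 1593 to 3237 for isoproterenol against the anti-arrhythmic groups. Pathway genes ranged from 38 to 60, from 29 to 48 (amiodarone), from 29 to 46 (propranolol), from 30 to 48 (ivabradine) and from 32 to 55 (isoproterenol against the anti-arrhythmic groups). The lowest isoproterenol counts were those without isoproterenol 3; leaving out amiodarone 2, metoprolol 1, propranolol 2, ivabradine 3, control 2 or control 3 also moved a count by over 1.5 times. Fewer libraries were fitted in each; the cause was not tested further.

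Libraries of the same number did not pair: over 63 pairs residuals correlated at -0.54 to 0.29 (median -0.03), and 3 of 21 libraries correlated best with their own number. A replicate block gave 4125 genes and 61 pathway genes for isoproterenol against control and 2709 and 51 against the anti-arrhythmic groups, and moved no count by over 1.5 times. FPKM without read totals give no counting error.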
